A study of Mus musculus with 13 samples.

Results

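The genes described here are the cyclins, kinases and kinase inhibitors that act in the G1 phase of the cell cycle. They comprise the 3 D-type cyclins Ccnd1, Ccnd2 and Ccnd3, the E-type cyclins Ccne1 and Ccne2, the kinases Cdk4 and Cdk6, and the inhibitors Cdkn1b, Cdkn1c and Cdkn2c. The 10 genes were chosen by name and found among the 22048 genes of the count table by their mouse Ensembl identifiers. The study measured mRNA in whole livers of 13 mice, and its title concerns neurotrophin-3 signals from hepatic stellate cells, the vitamin A-storing pericytes of the sinusoids, that act on hepatocyte proliferation. There were 6 control livers labelled as not depleted of stellate cells (3 male and 3 female), 4 livers depleted of stellate cells (1 male and 3 female) and 3 livers, not depleted, taken 72 h after partial hepatectomy, an operation that takes out part of the organ (2 male and 1 female). The labels give no strain, genotype, age or method of depletion, and do not say whether the control mice had a sham operation or any vehicle.

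Most hepatocytes of an adult liver rest outside the cell cycle and enter it when liver mass is lost. D-type cyclins accumulate in response to growth signals, bind Cdk4 or Cdk6, and start the phosphorylation of the retinoblastoma protein and its relatives. This releases E2F transcription factors, which raise the E-type cyclins, the partners of Cdk2, and the genes of DNA replication. The inhibitor p27 (Cdkn1b) and its relative p57 (Cdkn1c) bind cyclin and kinase together, whereas p18 (Cdkn2c) belongs to the INK4 class, which binds Cdk4 and Cdk6 alone. In the liver, cyclin D1 is the D-type cyclin best known for hepatocyte entry into the cycle after hepatectomy.

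In stellate cell-depleted livers, 2 of the 10 genes changed, and both fell. These were Ccnd1, at a log2 fold change of -1.71 ± 0.55 (SE), and Cdk6, at -0.74 ± 0.15 (SE). At 72 h after hepatectomy 2 of the 10 genes changed, and both rose. These were Ccne2, at 1.87 ± 0.53 (SE), and Cdkn2c, at 1.88 ± 0.43 (SE). Without hepatectomised replicate 2, the highest of its group in both, 0 of the 10 genes were called after hepatectomy, where 3.43% of all genes still were. The count was also 0 without control replicate 1 or 2, where 5.01% and 5.37% of all genes were called. Without depleted replicate 4, 3 were called higher and 1 lower, where 10.6% of all genes were called. In the direct comparison, Ccnd1 and Cdkn2c were lower in depleted than in hepatectomised livers, at -2.90 ± 0.63 and -1.57 ± 0.51 (SE). Calls rest on the quasi-likelihood test of edgeR with Benjamini-Hochberg adjustment over all 13831 genes tested, at a threshold of 0.05. All 10 genes passed the filter on low counts.

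Those counts stand against a high background of change. Of all genes tested, 33.9% were called in depleted against control livers (18.9% higher and 15% lower), 8.42% in hepatectomised against control livers (6.06% higher and 2.36% lower), and 23.4% in depleted against hepatectomised livers. The share called among the 10 genes was 20% in each comparison, below the background in depleted livers and above it after hepatectomy, where it rests on 2 genes. No gene of the 10 was called higher in depleted livers by edgeR, although 3 had a higher level at an unadjusted p under 0.05. DESeq2 called 6, 4 and 2 of the 10 genes in the 3 comparisons, where it called 37.9%, 14.1% and 28.6% of all genes, and in depleted livers 3 of its 6 were higher. limma-voom called 3, 1 and 1 of them, against 35.9%, 8.44% and 24.7% of all genes. With the replicate number as a block edgeR called 2, 0 and 1 of them, against 28.1%, 4.57% and 22.9%. The median log2 fold change of the 10 genes was 0.19 in depleted and 0.35 in hepatectomised livers, against -0.03 and -0.02 over all genes. With 1 library left out, the medians of the 10 genes ran from 0.11 to 0.21 and from 0.32 to 0.47. Scaling by library size alone moved the all-gene medians to 0.08 and -0.24 and the calls to 31.5%, 15.8% and 26.8% of all genes. After hepatectomy it turned the split of calls from 838 higher and 326 lower to 626 higher and 1566 lower, and among the 10 genes it gave 3 higher and 1 lower in depleted livers.

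Promoter sequences are shown for 3 of the genes on which the results turn, because they let the reader see which regulatory letters lie at the start of a gene that rose after hepatectomy (Cdkn2c), of one that fell in depleted livers (Cdk6) and of one that lay nearest the threshold in depleted livers (Ccne1). Each window runs from 250 bases before to 50 bases after the RefSeq start site (GRCm38.p6), 5′ to 3′ on the strand of the gene. Ccnd3 and Cdkn2c have 2 windows each, so 6 of the 10 genes were matched by 8 windows. Capitals mark E2F words (the word TTCCCGC, the word TTCGCGC, the word TTGCCGC and the word TTGGCGC, on either strand) and GC boxes (GGGCGG, on either strand), and no E2F word overlapped a GC box in these windows.

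Cdkn2c, chr4:109666707-109667006, minus strand: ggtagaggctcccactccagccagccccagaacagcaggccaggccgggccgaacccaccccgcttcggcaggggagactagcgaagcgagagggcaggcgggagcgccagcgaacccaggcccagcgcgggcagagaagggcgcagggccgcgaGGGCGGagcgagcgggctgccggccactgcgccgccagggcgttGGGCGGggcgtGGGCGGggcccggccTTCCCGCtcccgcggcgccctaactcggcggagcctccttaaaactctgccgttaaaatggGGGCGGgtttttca

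Ccne1, chr7:38107441-38107740, minus strand: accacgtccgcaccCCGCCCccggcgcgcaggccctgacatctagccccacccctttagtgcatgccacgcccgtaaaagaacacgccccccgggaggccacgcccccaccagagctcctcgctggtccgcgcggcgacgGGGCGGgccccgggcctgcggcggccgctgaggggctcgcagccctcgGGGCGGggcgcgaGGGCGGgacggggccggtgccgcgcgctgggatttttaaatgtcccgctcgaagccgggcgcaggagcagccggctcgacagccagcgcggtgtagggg

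Cdk6, chr5:3343643-3343942, plus strand: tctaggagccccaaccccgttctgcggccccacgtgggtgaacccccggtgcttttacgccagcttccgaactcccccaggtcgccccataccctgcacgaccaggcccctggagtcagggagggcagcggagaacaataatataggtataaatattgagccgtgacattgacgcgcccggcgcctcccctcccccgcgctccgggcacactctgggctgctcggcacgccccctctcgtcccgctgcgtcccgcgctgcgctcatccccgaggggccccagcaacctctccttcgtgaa

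The Cdkn2c window shown held 1 E2F word, TTCCCGC, beginning 25 bases before the start site, and 4 GC boxes. The Ccne1 window held 4 GC boxes and none of these E2F words. The Cdk6 window held neither, and 1 E-box (CACGTG, in lower case here), which 7.15% of all windows held. Of these genes, Cdk4 had 4 E-boxes in its window. The cyclic AMP response element TGACGTCA, held by 1.79% of all windows, was in none of the 8. Among all 32851 promoter windows of this length, 9.57% held an E2F word and 35.7% a GC box. Of the 8 windows of these genes, 1 held an E2F word and 6 held a GC box. These matches describe the letters in the windows and are not evidence of binding.

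Library totals ran from 35360991 to 51008737 counts, so that 3 counts correspond to between 0.0588 and 0.0848 CPM. CPM are counts relative to the library total, after the TMM scaling of edgeR, which levels the bulk of genes between libraries. All 9 hepatocyte markers in the table were detected in each group, at a summed level of 69791 to 184057 CPM over the 13 livers, and 2 of them were called lower in depleted livers. The stellate markers fell in depleted livers, with 12 of 12 called lower and a summed level of 15.5 to 74.7 CPM against 305 to 801 CPM in controls. Depleted replicate 4 held the 74.7 CPM, and the other 3 depleted livers held at most 19.1 CPM. In the same livers 12 of 12 T cell markers, 9 of 9 B and plasma cell markers and 11 of 11 monocyte and neutrophil markers tested were called higher, as were 6 of 9 Kupffer cell markers, at a summed 1504 to 3013 CPM against 95 to 683 CPM in controls. Also higher in depleted livers were 3 of 9 erythroid, 1 of 10 endothelial and 1 of 7 cholangiocyte markers tested. After hepatectomy 5 of the 11 monocyte and neutrophil markers and 2 of the 7 cholangiocyte markers were called higher, and 2 of the 9 B and plasma cell markers lower. Libraries also stood apart within groups. Control replicate 6 had summed endothelial markers of 128 CPM, against at least 409 CPM in the other controls, and Kupffer cell markers of 95 CPM against at least 479 CPM. Hepatectomised replicate 2 had 137 CPM of endothelial markers, against at least 314 CPM in the other livers of its group, and 105 CPM of Kupffer cell markers against 369 and 888 CPM. Depleted replicate 4 had 333 CPM of endothelial markers, against 575 to 618 CPM in the other depleted livers. Its Kupffer cell markers, at 3013 CPM, were the highest of its group and its hepatocyte markers, at 69791 CPM, the lowest. In whole liver, fewer cells of a type and less RNA per cell cannot be told apart.

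Levels were compared between genes per length, in RPKM, the CPM divided by the length of the gene model in kilobases. In control livers the order was Ccnd1 at 19.97 ± 14.6 RPKM (SD, n = 6), Cdk4 at 11.2 ± 0.98, Cdkn1b at 5.71 ± 0.94 and Ccnd3 at 2.92 ± 0.32. Cdk6 followed at 2.41 ± 0.42 RPKM, Cdkn2c at 2.13 ± 0.77, Ccnd2 at 1.72 ± 0.69 and Cdkn1c at 1.31 ± 0.86. The E-type cyclins were lowest, with Ccne1 at 0.67 ± 0.56 and Ccne2 at 0.52 ± 0.19 RPKM. Only the steps from Cdk4 to Cdkn1b and from Cdkn1b to Ccnd3 separated the ranges of neighbours in this order. All other neighbours overlapped. In depleted livers Cdk4 (10.1 ± 3.50 RPKM, SD, n = 4) stood above Ccnd1 (7.05 ± 5.43 RPKM) in 4 of 4 libraries. In depleted replicate 4 the 2 genes were nearly equal, at 15.18 and 15.15 RPKM. In hepatectomised livers Ccnd1 (38.2 ± 30.6 RPKM, SD, n = 3) stood above Cdk4 (11.0 ± 2.21 RPKM) in 3 of 3. Among controls Ccnd1 was above Cdk4 in 4 of 6.

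**Figure D1:**
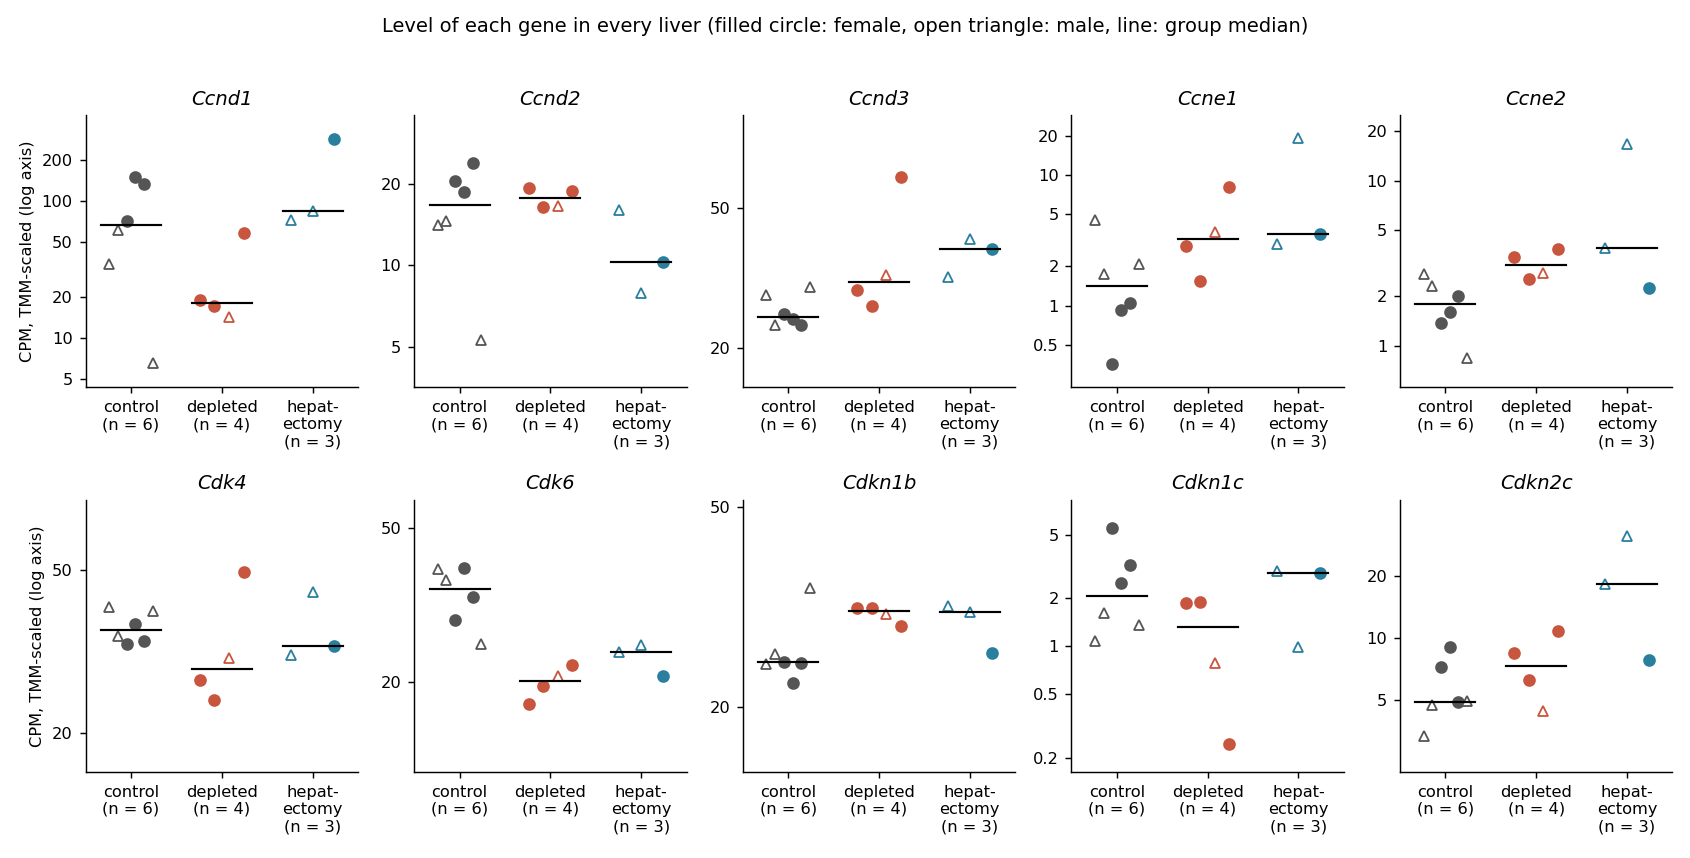
The level of each gene in every liver, in TMM-scaled CPM on a log axis, with 1 point per liver, filled circles for females, open triangles for males and a line at the group median. All 4 depleted livers and all 3 hepatectomised livers lie below every control for Cdk6, whereas the controls span 6.51 to 151 CPM for Ccnd1.

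Ccnd1 (ENSMUSG00000070348.4, chromosome 7, 144929931 to 144939869, mm10) encodes cyclin D1. In controls its level was lowest at 6.51, with a median of 66.9 and a highest value of 151 CPM. In depleted livers it was 18.8, 17.1, 14.1 and 58.1 CPM in replicates 1 to 4, and in the hepatectomised livers 73.2, 84.9 and 282 CPM in replicates 1 to 3. Depleted replicates 1 to 3 therefore sat together below 5 of the 6 controls, replicate 4 lay among the controls, and the lowest liver of all was control replicate 6. The fall in depleted livers had an edgeR adjusted p of 0.0289. After hepatectomy the difference of 1.19 ± 0.54 on the log2 scale (SE) was outside the threshold (edgeR adjusted p = 0.202).

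The depleted and hepatectomised livers did not overlap for Ccnd1, and the difference between them had an edgeR adjusted p of 0.00642. It stayed past the threshold in each of the 13 fits that left out 1 library, but not with sex left out of the model (adjusted p = 0.0544). The fall against controls was less firm. It did not pass without control replicate 4 (adjusted p = 0.0557), control replicate 5 (0.0545), depleted replicate 1 (0.0804), depleted replicate 2 (0.0760) or depleted replicate 3 (0.0634), nor with sex left out of the model (0.149) or with library size as the only scaling (0.0532). The log2 fold change in these 7 fits was -1.93 to -1.50, about as large as the -1.71 with all livers. In all, 17 of 24 alternative fits kept the call. Without the low-endothelial libraries control replicate 6 and hepatectomised replicate 2 it was -1.90 (edgeR adjusted p = 0.00574).

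The sexes lay apart for Ccnd1 in the livers measured. Control females had 71.9 to 151 CPM and control males 6.51 to 61.9 CPM. The hepatectomised female had 282 CPM against 73.2 and 84.9 CPM in the males, and the depleted females had 17.1 to 58.1 CPM against 14.1 CPM in the male. Females were thus above males in each of the 3 groups, yet the sex term of the model, -1.63 on the log2 scale for male against female, did not pass (edgeR adjusted p = 0.171). In a fit of female livers alone, with 3 control and 3 depleted livers, the log2 fold change of Ccnd1 was -1.93 (edgeR adjusted p = 0.0387).

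Ccnd1 is set here beside the stellate markers, liver by liver. The depleted liver with the highest Ccnd1, replicate 4 at 58.1 CPM, was also the one with 74.7 CPM of stellate markers. The 3 depleted livers with 14.1 to 18.8 CPM of Ccnd1 had 15.5 to 19.1 CPM of stellate markers. Replicate 4 stood apart in other cell types too. It had the highest Kupffer cell and T cell marker sums of its group, at 3013 and 131 CPM. Its endothelial and hepatocyte marker sums, at 333 and 69791 CPM, were the lowest of the group. Control replicate 6 was lowest of its group in Ccnd1, at 6.51 CPM, and in stellate markers, at 305 CPM. It was also lowest in endothelial and Kupffer cell markers, at 128 and 95 CPM. That control liver had less Ccnd1 than every depleted liver, whose stellate markers were at most 74.7 CPM. The hepatectomised livers, at 528, 338 and 634 CPM of stellate markers, had 73.2, 84.9 and 282 CPM of Ccnd1, and neither Ccnd1 nor any of the 12 stellate markers was called in them against controls. The part of stellate cell RNA in the Ccnd1 level was not tested. The 3 genes whose log2 CPM followed Ccnd1 most closely over the 13 libraries were Ccdc80 (Pearson r = 0.943), Fbn1 (r = 0.911) and Sparc (r = 0.878). Fbn1 encodes fibrillin-1 and Sparc a matrix-associated glycoprotein. These correlations describe libraries that share groups and sex.

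Ccnd2 (ENSMUSG00000000184.10, chromosome 6, 127125162 to 127152193) encodes cyclin D2. The controls ran from 5.31 CPM, again in replicate 6, through a median of 16.6 to 23.8 CPM, the depleted livers from 16.4 to 19.3 CPM and the hepatectomised livers from 7.89 to 16.0 CPM. Depleted livers lay within the control range. Its log2 fold change was 0.08 ± 0.30 (SE) in depleted livers (edgeR adjusted p = 0.867) and -0.35 ± 0.34 (SE) after hepatectomy (edgeR adjusted p = 0.568). The first of these changed sign without control replicate 6, to -0.07, or without depleted replicate 3, to -0.06. Depleted livers were above every hepatectomised liver, without a call (0.43 ± 0.38, SE, edgeR adjusted p = 0.443). Ranges that did not overlap in that comparison were found for Ccnd2, higher, and Ccnd1, lower, which is 2 of the 10 genes where 34% of all genes had them (18.1% higher and 15.9% lower).

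Ccnd3 (ENSMUSG00000034165.14, chromosome 17, 47505051 to 47599691) encodes cyclin D3. Controls were close together, from 23.2 through a median of 24.6 to 29.9 CPM. Depleted livers had 29.3, 26.4, 32.3 and 61.1 CPM and the hepatectomised livers 31.9, 40.9 and 38.2 CPM. Each hepatectomised liver was above every control, while 2 of the 4 depleted livers overlapped them. Neither difference passed, at 0.54 ± 0.22 (SE, edgeR adjusted p = 0.0723) in depleted and 0.53 ± 0.23 (SE, edgeR adjusted p = 0.178) in hepatectomised livers. Without depleted replicate 4, the liver at 61.1 CPM, the first was 0.22 (edgeR adjusted p = 0.185), and the second, whose fit shares its spread, passed at 0.52 (edgeR adjusted p = 0.0199). Ranges that did not overlap were found for 2 of the 10 genes after hepatectomy, Ccnd3 higher and Cdk6 lower, where 13.7% of all genes tested had them (7.41% higher and 6.25% lower).

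The make-up of the D-type cyclin pool can be read from the summed RPKM of its 3 genes, and is given without a test. The part taken by Ccnd1 was 71.7% ± 22.1 (SD, n = 6 controls), 49.8% ± 9.44 (SD, n = 4 depleted livers) and 83.8% ± 8.13 (SD, n = 3 hepatectomised livers). In depleted livers the shares were 47.7%, 48.4%, 40.3% and 62.8%, below 5 of the 6 controls, which had 65.6% to 89.3%. Control replicate 6 had 29.95%. The pool itself was 24.6 ± 14.9 RPKM in controls, 13.2 ± 7.30 in depleted and 43.7 ± 30.6 in hepatectomised livers.

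**Figure D2:**
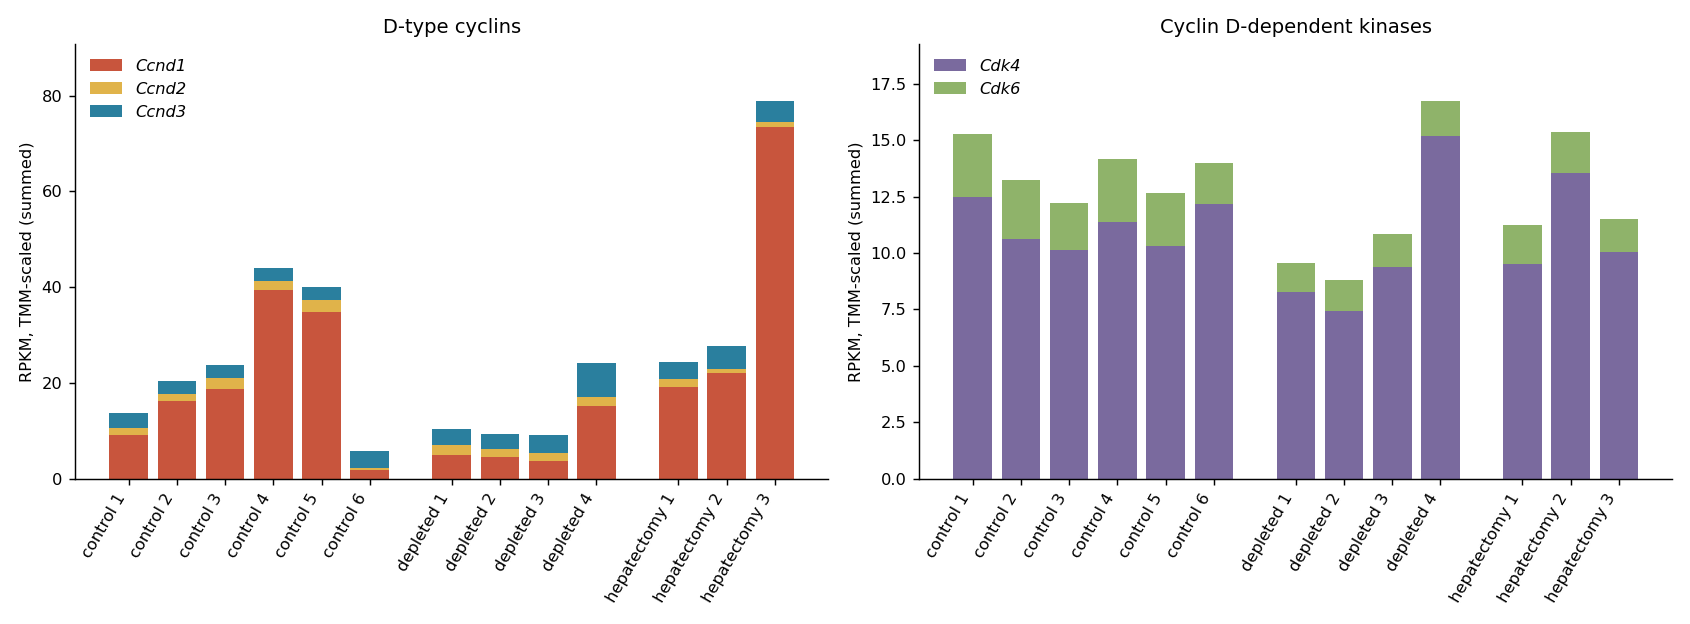
Summed RPKM of the D-type cyclins (left) and of Cdk4 and Cdk6 (right) in each library, with 1 stacked bar per liver. Ccnd1 makes up most of the cyclin D bar in the hepatectomised livers, at 78.2% to 93.1%, and 40.3% to 62.8% of it in the depleted livers, while Cdk4 makes up 80.1% to 90.6% of every kinase bar.

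Ccne1 (ENSMUSG00000002068.14, chromosome 7, 38097984 to 38107534) encodes cyclin E1. It ran in controls from 0.354 through a median of 1.404 to 4.53 CPM. Depleted livers had 2.87, 1.55, 3.65 and 8.18 CPM and the hepatectomised livers 2.94, 19.1 and 3.54 CPM. Both treated groups overlapped the controls, and 1 liver was above the rest of its group in each of them, depleted replicate 4 and hepatectomised replicate 2. The log2 fold change was 1.88 ± 0.68 (SE) in depleted livers, just outside the threshold (edgeR adjusted p = 0.0503), and 2.11 ± 0.65 (SE) after hepatectomy (edgeR adjusted p = 0.0663). Without the highest liver of the group these were 1.10 (without depleted replicate 4) and 1.16 (without hepatectomised replicate 2), at edgeR adjusted p-values of 0.160 and 0.426. In depleted livers edgeR called it without control replicate 1 or without depleted replicate 2 or 3 or hepatectomised replicate 1, at adjusted p-values from 0.0283 to 0.0404. DESeq2 called both, with adjusted p-values of 0.00510 and 0.0112. Control males, at 1.75 to 4.53 CPM, lay above control females, at 0.354 to 1.05 CPM, and among females alone the depleted livers were higher by 2.42 (edgeR adjusted p = 0.0453).

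Ccne2 (ENSMUSG00000028212.14, chromosome 4, 11191351 to 11204779) encodes cyclin E2. Controls ran from 0.840 through a median of 1.80 to 2.73 CPM, the depleted livers had 3.45, 2.55, 2.76 and 3.85 CPM, and the hepatectomised livers 3.94, 16.6 and 2.24 CPM. Hepatectomised replicate 3 lay within the control range, and replicate 2 was at least 4 times as high as either of the others. The call after hepatectomy (edgeR adjusted p = 0.0464) was lost in 11 of the 13 fits that left out 1 library, at adjusted p-values from 0.0503 to 0.350, and kept only without hepatectomised replicate 1 or replicate 3. Without hepatectomised replicate 2 the log2 fold change was 0.75 (adjusted p = 0.350). In depleted livers the log2 fold change was 0.95 ± 0.48 (SE) and did not pass (edgeR adjusted p = 0.148). The genes that followed Ccne2 most closely over the 13 libraries were Atad2 (Pearson r = 0.958), Wdhd1 (r = 0.938), which acts in DNA replication, and Mcm5 (r = 0.913), a subunit of the replicative helicase.

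Cdk4 (ENSMUSG00000006728.10, chromosome 10, 127063534 to 127067920) encodes the first of the kinases that cyclin D activates. It ran from 32.96 through a median of 35.7 to 40.5 CPM in controls. Depleted livers had 26.9, 24.1, 30.4 and 49.3 CPM and the hepatectomised livers 31.0, 44.1 and 32.6 CPM. In depleted livers 3 were below every control and replicate 4 was above every control. The log2 fold change was -0.13 ± 0.19 (SE, edgeR adjusted p = 0.656), or 0.00049 with library size as the only scaling. Without depleted replicate 4 it passed, at -0.39 (edgeR adjusted p = 0.0282). After hepatectomy it was -0.03 ± 0.21 (SE, edgeR adjusted p = 0.943), and changed sign without hepatectomised replicate 1, to 0.07.

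Cdk6 (ENSMUSG00000040274.9, chromosome 5, 3341485 to 3531008) encodes the second of these kinases. Controls ran from 25.1 CPM in replicate 6 through a median of 34.9 to 39.5 CPM. In depleted livers it was 17.5, 19.5, 20.7 and 22.1 CPM, and in the hepatectomised livers 23.8, 24.9 and 20.7 CPM. Every depleted and every hepatectomised liver was thus below every control, although hepatectomised replicate 2 and control replicate 6 were separated by less than 1 CPM. In depleted livers the level was 0.598 times that of controls, with an edgeR adjusted p of 0.00194, and it was the only 1 of the 10 genes with ranges that did not overlap in that comparison, against 28.4% of all genes tested (16.5% higher and 11.9% lower). The call held in 24 of 24 alternative fits, at log2 fold changes from -0.81 to -0.64.

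After hepatectomy the log2 fold change of Cdk6 was -0.56 ± 0.16 (SE), just outside the threshold (edgeR adjusted p = 0.0508). It passed in 6 of 23 alternatives: without control replicate 6, at -0.66 (edgeR adjusted p = 0.0170), without depleted replicate 4, at -0.56 (edgeR adjusted p = 0.0425), without both livers low in endothelial markers, at -0.69 (edgeR adjusted p = 0.0428), with scaling by library size alone, at -0.78 (edgeR adjusted p = 0.0227), without the sex term, at -0.54 (edgeR adjusted p = 0.0450), and in DESeq2, at -0.56 (adjusted p = 0.0177). Depleted and hepatectomised livers differed by -0.18 ± 0.18 (SE, edgeR adjusted p = 0.488). The comparisons of depleted and of hepatectomised livers with controls share the same 6 control livers, here and throughout. The ratio of Cdk4 to Cdk6 RPKM was 4.03 to 4.92 in controls 1 to 5, 6.80 in control replicate 6, 5.31 to 9.61 in depleted and 5.59 to 7.63 in hepatectomised livers. The RPKM of Cdk6 uses the whole gene model of 13989 bases, whichever transcript the liver makes.

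The genes most like Cdk6 over the 13 libraries were Rab43 (Pearson r = 0.944), Atrn (r = 0.878) and Gna12 (r = 0.877), which encodes a G protein alpha subunit. Rab43, a small GTPase gene, ran from 219 to 266 CPM in controls, from 136 to 167 CPM in depleted and from 165 to 178 CPM in hepatectomised livers. T cell markers, which summed to 4.41 to 6.83 CPM in controls, summed to 55.3 to 131 CPM in the depleted livers, in which Cdk6 was low, and to 4.64 to 8.22 CPM after hepatectomy. Their part in the Cdk6 level was not tested.

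Cdkn1b (ENSMUSG00000003031.12, chromosome 6, 134920401 to 134925513) encodes p27. Controls ran from 22.3 through a median of 24.6 to 34.5 CPM, the last in replicate 6, and the other 5 controls reached at most 25.6 CPM. Depleted livers had 31.5, 31.6, 30.7 and 29.1 CPM and the hepatectomised livers 31.8, 31.0 and 25.7 CPM. All 7 were above those 5 controls and below control replicate 6. The log2 fold change in depleted livers was 0.29 ± 0.12 (SE, edgeR adjusted p = 0.0703), and it passed at 0.35 without control replicate 6 (edgeR adjusted p = 0.0140). After hepatectomy it was 0.15 ± 0.13 (SE, edgeR adjusted p = 0.503), or -0.06 with library size as the only scaling.

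Cdkn1c (ENSMUSG00000037664.10, chromosome 7, 143458350 to 143461050) encodes p57 and is an imprinted gene expressed from the maternal allele. The controls ran from 1.07 through a median of 2.05 to 5.50 CPM. Depleted livers had 1.86, 1.88, 0.786 and 0.245 CPM and the hepatectomised livers 2.97, 0.982 and 2.89 CPM. Control females, at 2.49 to 5.50 CPM, were above control males, at 1.07 to 1.61 CPM, and every depleted female was below every control female. The log2 fold change in depleted livers, -1.22 ± 0.52 (SE), did not pass (edgeR adjusted p = 0.0866), but passed with limma-voom at -1.57 (adjusted p = 0.0356) and with DESeq2 at -1.21 (adjusted p = 0.0481). After hepatectomy it was 0.18 ± 0.55 (SE, edgeR adjusted p = 0.885), and its sign turned with library size as the only scaling (-0.04) and without hepatectomised replicate 1 (-0.40). Of the summed RPKM of p27 and p57 genes, Cdkn1b made up 65.5% to 91.5% in controls, 87.7% to 98.1% in depleted and 79.0% to 93.0% in hepatectomised livers.

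Cdkn2c (ENSMUSG00000028551.12, chromosome 4, 109660876 to 109667189) encodes p18. Of its 2 promoter windows, 1 holds the E2F word above and the other holds none. The controls ran from 3.38 through a median of 4.94 to 9.12 CPM, the depleted livers had 8.46, 6.25, 4.45 and 10.8 CPM, and the hepatectomised livers 18.3, 31.3 and 7.88 CPM. The 2 hepatectomised males were above every control, and the female, replicate 3, lay within the control range. The rise after hepatectomy had an edgeR adjusted p of 0.0198. It did not pass without control replicate 1 (adjusted p = 0.0614), control replicate 2 (0.0541) or hepatectomised replicate 2 (0.0913, at a log2 fold change of 1.32), and with the replicate number as a block its adjusted p was 0.0869.

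In depleted livers Cdkn2c overlapped the controls, 0.31 ± 0.38 on the log2 scale (SE, edgeR adjusted p = 0.575). Its difference between depleted and hepatectomised livers (edgeR adjusted p = 0.0426) was kept in only 3 of the 13 fits that left out 1 library (control replicate 5, depleted replicate 4 or hepatectomised replicate 3), and was -1.04 without hepatectomised replicate 2 (adjusted p = 0.136). Cenpq (Pearson r = 0.949) and Ska2 (r = 0.939), both genes of the chromosome segregation machinery, and Sar1a (r = 0.927) followed Cdkn2c most closely over the 13 libraries.

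**Figure D3:**
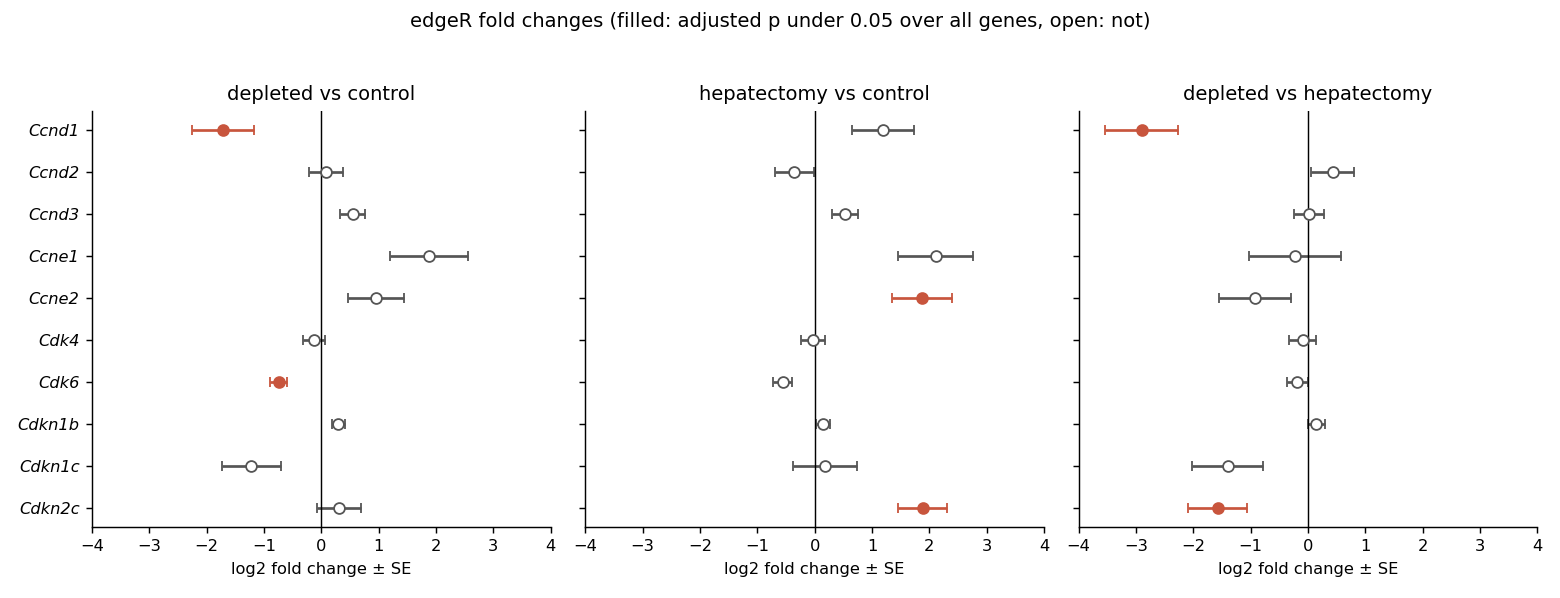
Log2 fold change with its standard error for each gene in the 3 comparisons, from the edgeR model with group and sex over 13 libraries, filled where the adjusted p was under 0.05. Ccnd1 is at -1.71 in depleted and 1.19 in hepatectomised livers, whereas Cdk6 is below 0 in both, at -0.74 and -0.56.

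The remaining inhibitors of the same classes are described next, with the genes around them in the pathway. Cdkn1a, the gene of p21, a relative of p27, had 0.330 to 2.14 CPM in controls, 10.9 to 55.6 CPM in depleted and 56.1 to 85.5 CPM in hepatectomised livers. It rose by 4.74 ± 0.53 and 6.17 ± 0.57 on the log2 scale (SE, edgeR adjusted p = 4.75e-05 and 1.30e-04). Cdkn2a, the gene of p16 and Arf, was near the level of 3 counts in controls, at no more than 0.148 CPM, and had 0.985 to 3.76 CPM in depleted livers (edgeR adjusted p = 1.39e-04). After hepatectomy it had at most 0.200 CPM (edgeR adjusted p = 0.848), and depleted livers were above hepatectomised ones (edgeR adjusted p = 0.00269). Cdkn2d, the gene of p19, rose after hepatectomy by 1.47 ± 0.40 (SE, edgeR adjusted p = 0.0415) and had an edgeR adjusted p of 0.0512 in depleted livers, at 1.00. Its call was kept in 6 of the 13 fits that left out 1 library and lost without control replicate 1, 2, 5 or 6, depleted replicate 1 or 3, or hepatectomised replicate 2, where the log2 fold change was 0.72 (edgeR adjusted p = 0.256). The calls of Cdkn1a and Cdkn2a were kept in 13 of 13. Cdkn2b, the gene of p15, did not pass in any comparison, with edgeR adjusted p-values from 0.0757 to 0.368. These 4 genes had median log2 fold changes of 2.87 in depleted and 0.91 in hepatectomised livers, the second 0.45 without hepatectomised replicate 3.

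Of 13 genes for pocket proteins, E2F factors and their DP partners, 4 rose and 1 fell in depleted livers, and 2 rose and 1 fell after hepatectomy, at medians of 0.31 and 0.17. That is 38.5% and 23.1% of the list, against 33.9% and 8.42% of all genes, so the count in depleted livers was near the background. Without depleted replicate 3 only 1 gene rose there, 7.69% of the list against 21.6% of all genes, and without control replicate 4 the median was 0.62. After hepatectomy 0 rose without control replicate 1, 2, 3 or 5 or hepatectomised replicate 2 and 1 without control replicate 6, whereas 4 rose without control replicate 4 and 3 without hepatectomised replicate 3, where the median was 0.31. Rbl2, the gene of p130, the pocket protein of resting cells, fell in both, by 0.38 and 0.58 on the log2 scale (edgeR adjusted p = 0.0241 and 0.0155). Its relative Rbl1 rose by 1.78 in depleted livers (edgeR adjusted p = 0.0113), as did Rb1, by 0.58 (edgeR adjusted p = 0.0261). E2f7, a repressor of the family, rose in both, by 2.14 and 2.56 (edgeR adjusted p = 0.0155 and 0.0321). E2f1 rose after hepatectomy by 2.15 (edgeR adjusted p = 0.0294) and E2f2 in depleted livers by 1.51 (edgeR adjusted p = 0.0121). Of these, the call of E2f2 was kept in 13 of 13 fits that left out 1 library. In depleted livers the calls of Rbl1, Rb1, Rbl2 and E2f7 were lost without depleted replicate 3, that of Rbl2 also without control replicate 3 or 5, and that of Rb1 also without control replicate 2, 3 or 5 or depleted replicate 1. After hepatectomy the call of Rbl2 was lost without hepatectomised replicate 2 or 3. The calls of E2f1 and E2f7 were lost there without hepatectomised replicate 2, at 1.06 and 1.47, and without control replicate 1, 2, 3 or 5, and that of E2f1 also without control replicate 6.

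Of 24 E2F target genes, most of them DNA replication factors, 10 rose and 1 fell in depleted livers and 15 rose after hepatectomy, with none called lower there. That is 45.8% and 62.5% of the list, against 33.9% and 8.42% of all genes. Of all genes, 18.9% and 6.06% were called higher. The median log2 fold changes were 1.17 and 1.96. The hepatectomised livers varied widely in these genes, with Rrm2 at 13.7 to 143 CPM and Mcm5 at 7.48 to 80.3 CPM. Without hepatectomised replicate 2 the count that rose after hepatectomy was 3 of 24, at a median of 0.71, without control replicate 1 or control replicate 2 it was 5, and without control replicate 6 it was 7. The shares were 12.5% against 3.43% of all genes, 20.8% against 5.01% and 5.37%, and 29.2% against 7.09%, each above the background. Over the 13 fits that left out 1 library the count that rose after hepatectomy was 3 to 19, and the count that rose in depleted livers was 4 to 15. In depleted livers 4 rose without depleted replicate 3 and 5 without depleted replicate 4. The share called there in either direction was then 20.8% against 21.6% of all genes and 29.2% against 35.1%, no higher than the background. The list medians in these 2 fits were 1.22 and 0.88. Without control replicate 1, 2, 3, 5 or 6 the share was 33.3% against 30.1% to 32.9% of all genes, near the background. Without control replicate 4 or hepatectomised replicate 2 or 3 it was 50% to 70.8%, against 32.2% to 35%. Without depleted replicate 1 or 2 or hepatectomised replicate 1 it was 37.5% to 45.8%, against 29.2% to 34.1%. Among those with the smallest adjusted p were Mybl2, a transcription factor gene that rose by 2.51 in depleted livers (edgeR adjusted p = 4.32e-04), Orc1, of the origin recognition complex, which rose by 4.17 and 3.43 (edgeR adjusted p = 5.48e-04 and 0.0128), and Rrm2, of ribonucleotide reductase, which rose by 2.83 and 3.94 (edgeR adjusted p = 0.00226 and 0.00378). Orc1 was at most 0.0900 CPM in controls, so the size of its fold change is uncertain. The calls of these 3 genes were kept in all 13 fits, except that of Orc1 after hepatectomy, which was lost without hepatectomised replicate 2, at 2.81 (edgeR adjusted p = 0.0685). In that fit Rrm2 after hepatectomy was 2.29 (edgeR adjusted p = 0.00200).

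Among 8 genes of Cdk2, Cdk1, cyclin A and their activation, 1 rose and 1 fell in depleted livers and 3 rose after hepatectomy. That is 25% and 37.5% of the list, the first below the 33.9% of all genes and the second above 8.42%. Ccna2, the gene of cyclin A2, which is also among the E2F targets, rose in both, by 2.42 and 3.99 (edgeR adjusted p = 0.0208 and 0.0133). The first call was lost without depleted replicate 3 or 4, and the second without hepatectomised replicate 2, at 3.35 (edgeR adjusted p = 0.0510). Cdk1, the kinase of mitosis, and Cdc25a, a phosphatase that activates these kinases, rose after hepatectomy, by 4.30 and 0.97 (edgeR adjusted p = 0.00671 and 0.0176), and Ccnh, of the kinase that activates them, fell by 0.34 in depleted livers (edgeR adjusted p = 0.0357). The call of Cdk1 was kept in 13 of 13 fits that left out 1 library, that of Cdc25a was lost without hepatectomised replicate 2, at 0.75 (edgeR adjusted p = 0.0971), and that of Ccnh was lost without control replicate 3, 4 or 5 or depleted replicate 1, 2 or 3. Without hepatectomised replicate 2, 1 gene of this list rose after hepatectomy, which is 12.5% against 3.43% of all genes. Without both low-endothelial libraries 0 of the 8 were called there, against 2.93% of all genes, and Cdk1 was 3.45 (edgeR adjusted p = 0.0606). In depleted livers 0 genes of the list were called without depleted replicate 3, against 21.6% of all genes. Without control replicate 4, 2 rose in depleted livers, at 25% against 32.2%. Cdk2, the partner of cyclin E, was at -0.13 and 0.18, with edgeR adjusted p-values of 0.679 and 0.658.

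Of 13 genes tested that act in the degradation of cyclins and inhibitors, 2 rose and 1 fell in depleted livers and 2 rose after hepatectomy. That is 23.1% and 15.4% of the list, the first again below the 33.9% of all genes and the second above 8.42%. After hepatectomy 0 rose without control replicate 2 or 5 or hepatectomised replicate 2, and 1 without control replicate 1, 3 or 6 or depleted replicate 1 or 3. Skp2, which marks p27 for degradation, rose in depleted livers by 1.25 (edgeR adjusted p = 0.0177), and Fbxo5, an inhibitor of the anaphase-promoting complex, rose in both, by 1.65 and 1.396 (edgeR adjusted p = 0.00260 and 0.0358). Fbxo31 rose after hepatectomy by 1.47 (edgeR adjusted p = 0.0246). Ambra1, which marks D-type cyclins for degradation, fell by 0.36 in depleted livers (edgeR adjusted p = 0.0227). The calls of Skp2 and Fbxo5 in depleted livers were kept in 13 of 13 fits that left out 1 library, and that of Ambra1 was lost without control replicate 3 or 5 or depleted replicate 2. After hepatectomy the call of Fbxo5 was kept in 5 of 13 and lost without hepatectomised replicate 2, at 0.79, without any 1 of controls 1, 2, 3, 5 and 6, and without depleted replicate 1 or 3. That of Fbxo31 was lost without control replicate 2 or 5 or hepatectomised replicate 2 or 3, and its log2 fold change over the 13 fits ran from 0.81 to 1.85.

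Of 13 upstream regulators, 4 rose and 1 fell in depleted livers and 2 rose after hepatectomy. That is 38.5% and 15.4% of the list, against 33.9% and 8.42% of all genes, so here too the count in depleted livers was near the background. In depleted livers 1 rose without depleted replicate 3 and 2 without control replicate 4, and after hepatectomy 1 rose without control replicate 1 or 6 or hepatectomised replicate 2 or 3. The median in depleted livers was 0.17, with 0.0705 without depleted replicate 4, 0.10 without control replicate 5, 0.26 without depleted replicate 2, 0.302 without control replicate 4 and 0.32 without depleted replicate 3. After hepatectomy it was 0.55, with 0.27 without hepatectomised replicate 3 and 0.34 without replicate 2. Myc rose in depleted livers by 2.01 ± 0.44 (SE, edgeR adjusted p = 0.00383), from 1.65 to 8.87 CPM in controls to 7.91 to 18.0 CPM. Jun, which encodes a component of the AP-1 factor, rose in both, by 1.602 and 2.06 (edgeR adjusted p = 0.0213 and 0.0250). Pim3, a serine/threonine kinase gene, rose after hepatectomy by 2.03 (edgeR adjusted p = 0.00233) and was lower in depleted than in hepatectomised livers (edgeR adjusted p = 0.00357). Akt1 and Pim1, both kinase genes, rose in depleted livers by 0.38 and 1.59 (edgeR adjusted p = 0.0248 and 0.0420), and Mtor, the kinase of nutrient signalling, fell by 0.47 (edgeR adjusted p = 0.0254). The calls of Myc in depleted livers and of Pim3 after hepatectomy were kept in 13 of 13 fits that left out 1 library, and the difference of Pim3 between depleted and hepatectomised livers was lost without hepatectomised replicate 3 (edgeR adjusted p = 0.0540). The call of Jun was lost in depleted livers without depleted replicate 3, and after hepatectomy without control replicate 1 or 6 or hepatectomised replicate 2 or 3. Without hepatectomised replicate 2, Jun after hepatectomy was 1.07 (edgeR adjusted p = 0.256). The call of Akt1 was lost without control replicate 4 or depleted replicate 3, and that of Mtor without control replicate 4 or depleted replicate 2, 3 or 4. That of Pim1 was kept in 4 of 13 and lost without any 1 of controls 1 to 5, without depleted replicate 1, 3 or 4, and without hepatectomised replicate 2.

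**Figure D4:**
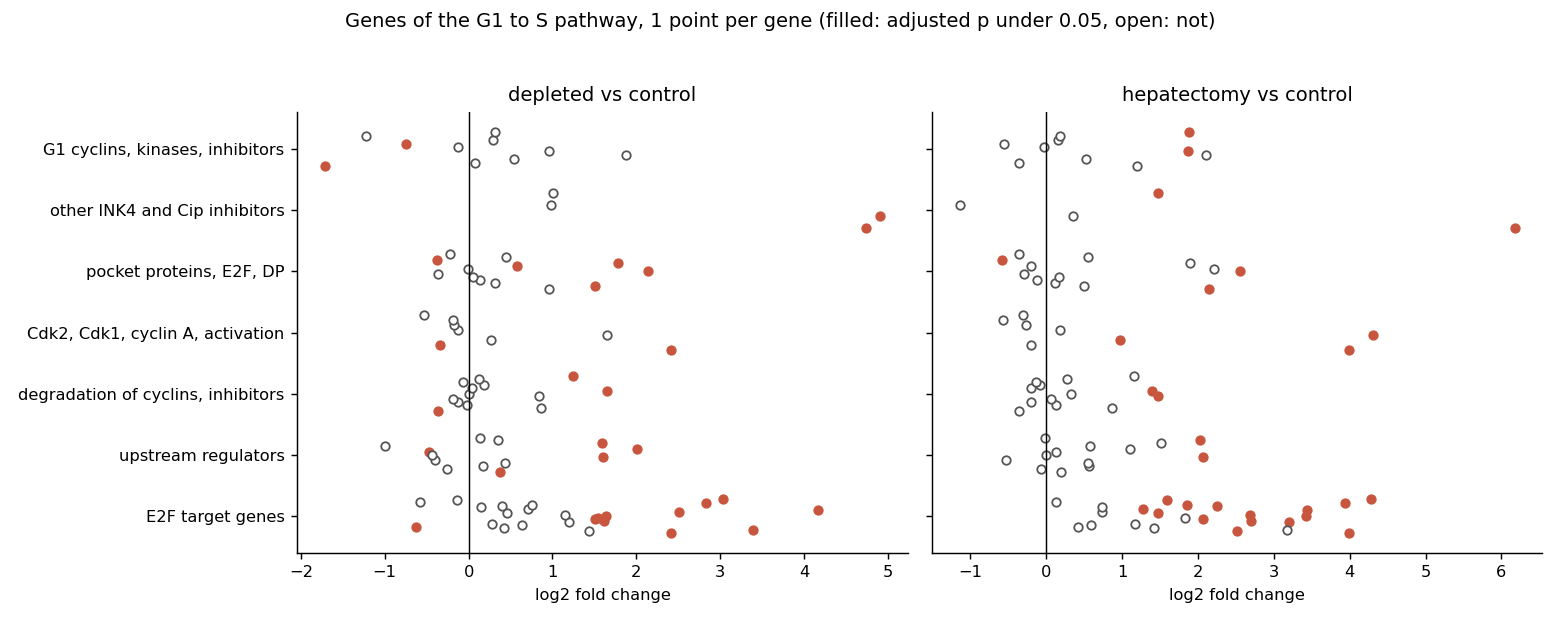
Log2 fold changes against control for each gene of 7 lists of the G1 to S pathway, with 1 point per gene, filled where the edgeR adjusted p was under 0.05. The E2F target genes lie mostly above 0, with medians of 1.17 and 1.96 (0.71 after hepatectomy without hepatectomised replicate 2), whereas the 10 genes of the top row spread to both sides of 0 in depleted livers.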

How the data were processed

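Whole-liver mRNA of 13 mice was measured by RNA-seq, 1 library a liver. Per the labels' protocols, RNA was taken up in TRIzol and stranded mRNA libraries were made from 500 ng with the TruSeq chemistry and run over 2 flowcell lanes. The authors deposited raw read counts per gene, and the submitters' processing notes name STAR 2.7.1a, SAMtools 1.15.1, featureCounts 1.6.4 and the build mm10, without settings for strand or multi-mapped reads. Gene positions and the length in bases, another column of the deposited table (the summed exons of each gene model), come from that table. Its exons overlapped the same gene of GENCODE release M21 (GRCm38) for 99.94% of 21741 matched IDs, and 307 IDs stayed unnamed. Counts were tested with edgeR 4.0.16 in R 4.3.3 (filterByExpr, TMM scaling, robust glmQLFit, glmQLFTest, two-sided) with group and sex over 13 libraries. An SE is the fold change divided by the root of the F statistic. CPM and RPKM are TMM-scaled. For log2 CPM the prior count was 2.

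Alternatives were DESeq2 1.42.0, limma-voom (limma 3.58.1), other scalings and filters, other sets of libraries, the sex term and the replicate number as a block. The test was checked on simulated data with known changes. Replicate numbers come from the labels. Same-numbered livers of control and hepatectomised mice deviated together from their group means (r = 0.11 to 0.52), but these pairs share sex, and with sex in the fit r was -0.19 to 0.08. For control and depleted livers r was -0.34 to 0.07 from the group means and -0.10 to 0.42 with sex in the fit. For depleted and hepatectomised livers it was -0.35 to 0 from the group means, but above 0 in 3 of 3 pairs with sex in the fit (0.04 to 0.27, mean 0.16, against a mean of -0.05 for different numbers). In no pair of groups did every pair exceed 0.1 with sex in the fit, and the numbers were not treated as pairs. Labels do not say that replicates are separate litters or batches, so p-values measure the spread between these livers. The least median chi-square between libraries of a group was 4.60, so none was a repeat. The floor of 3 counts covers counting error only, and reads carried no molecular identifiers. Each SE and SD includes the spread between livers. No batch and no date are in the labels, and any batch that ran with the groups cannot be told apart from them. The genes and gene lists were chosen with earlier results of these data known, and no p adjusted over a list is given. All 10 genes are named. Of each further list at most 8 genes called in any comparison were named, smallest adjusted p first, and Cdkn1a always. Cdk2 and Cdkn2b, and the ratio of Cdk4 to Cdk6, were chosen after their values were seen. The genes most like a called gene are the 3 with the highest Pearson r of log2 CPM among tested genes with a mean log2 CPM of at least 1. The values of 1 gene of the E2F target list are not reported here.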

Additional observations from a re-analysis of the deposited data

Results flagged for a closer look

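Among 20 groups of 4 or 6 livers examined, 3 held a liver whose gap to its nearest neighbour took up an unusual share of the group's range (Dixon's critical shares are 0.829 for 4 livers and 0.625 for 6). Chance gives about 1 in 20 groups, or 1 here. Depleted replicate 4 had 58.1 CPM of Ccnd1, where the next liver had 18.8 CPM. The same liver had 61.1 CPM of Ccnd3, where the next had 32.3 CPM, at a gap of 0.830, close to the critical share. Control replicate 6 had 34.5 CPM of Cdkn1b, where the next had 25.6 CPM.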

How the results depend on the processing

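Outside the fits that left out 1 library, 257 fold changes of the 10 genes kept direction and side of the threshold, 20 came to pass it, 15 ceased to pass it and 18 changed sign. None of those that changed sign was called in the main model. The count of these genes called in depleted, hepatectomised and depleted against hepatectomised livers was 2 each. It became 4 with library size alone in depleted livers, 6 and 4 with DESeq2 in the first 2 comparisons, 1 with limma-voom in the last 2, and 1 without the sex term in the first and the last. It became 4, 1 and 1 without both low-endothelial libraries, an alternative chosen after seeing the data, in which 34.4%, 2.93% and 20.5% of all genes were called. With only the 2 groups compared it became 1 in the last. The causes were not tested.

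The replicate number as a block, not taken as a pairing, gave 632 called genes after hepatectomy in place of 1164, with 0 of the 10 genes, and 1 of them in depleted against hepatectomised livers. After hepatectomy, under the block, Ccne2 was 1.55 (edgeR adjusted p = 0.126) and Cdkn2c 1.81 (0.0869). Signs changed under the block for Cdk4 (0.080) and Cdkn1c (-0.28) after hepatectomy and Ccnd3 (-0.14) in depleted against hepatectomised livers.

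All genes called after hepatectomy numbered 2192 with library size alone, 1939 with DESeq2 and 412 without both low-endothelial libraries. In depleted livers they numbered 2695 among females alone, and in depleted against hepatectomised livers 2105 with only those groups. Signs changed with library size alone for Cdk4 in depleted livers (0.00049), for Cdkn1b (-0.059) and Cdkn1c (-0.038) after hepatectomy, and for Ccne1 (0.12), Cdk4 (0.24) and Cdk6 (0.14) in depleted against hepatectomised livers. Cdkn1c after hepatectomy was -0.16 without the sex term. Ccnd2 in depleted livers was -0.21 in females and -0.064 without both low-endothelial libraries. In depleted against hepatectomised livers those libraries' removal gave Ccne1 0.51, Ccne2 0.19 and Cdk4 0.041, and Ccnd3 was -0.0044 with no filter, -0.061 with limma-voom and -0.090 with only those groups.

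Leaving out each library in turn gave 2960 to 4928 called genes in depleted livers, 483 to 1458 after hepatectomy and 1709 to 3850 in depleted against hepatectomised livers, with 1 to 3, 0 to 4 and 1 to 2 of the 10 genes. The lowest counts came without depleted replicate 3, hepatectomised replicate 2 and depleted replicate 3. Uncalled genes that changed sign ran from -0.067 to 0.19 (Ccnd2, depleted), -0.19 to 0.071 (Cdk4) and -0.40 to 0.44 (Cdkn1c) after hepatectomy, and in depleted against hepatectomised livers -0.30 to 0.14 (Ccnd3), -0.34 to 0.048 (Cdk4), -0.98 to 0.51 (Ccne1) and -1.65 to 0.12 (Ccne2). At 3 counts the floor was 0.0588 to 0.0848 CPM, and Cdkn2a in controls lay near it. The counts and calls of the pathway lists with libraries left out were added after seeing the data.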
